A study of Mus musculus with 11 samples.

Results

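Transcripts of 9 genes that finish protein digestion and take up its products were followed in epithelial cells of the mouse small intestine. The genes were chosen by name, and all 9 had a row among the 11366 genes of the deposited table. They comprised the peptidase genes Xpnpep2, Anpep, Enpep, Dpp4, Mep1a and Mep1b and the transporter genes Slc15a1, Slc6a19 and Slc7a9. The 11 libraries came from wild-type mice in 3 groups. NFF mice ate a diet low in fermentable fiber (n = 4), SFB mice ate standard chow and were colonized with SFB, an abbreviation the labels do not spell out (n = 4), and Control mice ate standard chow (n = 3). In every group the cells were live, positive for the epithelial molecule EpCAM and negative for the leukocyte marker CD45, the endothelial marker CD31 and CD44, a surface molecule abundant in crypts. The labels give neither the segment of the small intestine nor the age of the mice, and do not name the animal behind each library, so the p-values reflect the spread among libraries, which may be technical.

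Protein digestion ends at the brush border, the apical carpet of microvilli on enterocytes. Membrane-bound peptidases there trim the peptides left by pancreatic proteases to free amino acids and to very short peptides, and apical transporters carry both into the cell. Aminopeptidases take residues from the amino end, dipeptidyl peptidases release them in pairs, and meprins cut inside the chain. Several of these proteins vary in amount along the length of the intestine and between the base and the tip of the villus.

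RefSeq promoters (assembly GRCm38.p6, 250 bases before to 50 after a start annotated in RefSeq) were matched for 8 of the 9 genes, all but Mep1b. Those of Mep1a and Xpnpep2 are shown because these genes differed most between groups, and that of Slc7a9 because it alone held the HNF1 motif searched for. Each is written 5′ to 3′ on the gene's own strand, and capitals mark matches on either strand to TAATNATTA (HNF1), GATAA (GATA factors), TTTAT (CDX factors) and CAAAG (part of an HNF4 site), where N is any base.
Mep1a, chr17:43502724-43503023, minus strand: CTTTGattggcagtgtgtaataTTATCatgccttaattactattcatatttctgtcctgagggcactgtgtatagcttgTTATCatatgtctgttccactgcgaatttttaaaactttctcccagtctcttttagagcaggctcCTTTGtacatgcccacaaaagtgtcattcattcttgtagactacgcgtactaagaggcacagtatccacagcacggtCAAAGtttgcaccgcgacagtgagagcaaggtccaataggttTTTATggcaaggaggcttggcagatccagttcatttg
Xpnpep2, chrX:48108475-48108774, plus strand: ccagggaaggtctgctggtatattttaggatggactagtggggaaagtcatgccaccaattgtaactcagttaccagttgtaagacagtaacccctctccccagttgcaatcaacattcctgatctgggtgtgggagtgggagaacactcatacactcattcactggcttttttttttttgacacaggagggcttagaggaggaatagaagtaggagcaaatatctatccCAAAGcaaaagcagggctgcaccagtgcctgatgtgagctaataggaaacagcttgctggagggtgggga
Slc7a9, first of 2 entries, chr7:35448842-35449141, plus strand: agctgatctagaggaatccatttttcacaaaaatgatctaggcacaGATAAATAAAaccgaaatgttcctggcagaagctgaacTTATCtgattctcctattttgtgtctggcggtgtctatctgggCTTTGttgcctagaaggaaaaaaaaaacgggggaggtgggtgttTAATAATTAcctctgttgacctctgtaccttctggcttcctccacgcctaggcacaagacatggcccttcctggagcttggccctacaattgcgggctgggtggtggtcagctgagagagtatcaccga
The GATAA and TTTAT matches of Slc7a9 overlap at 1 place. CAAAG was found in 6 of the 8 genes, GATAA in 4, TTTAT in 4 and TAATNATTA in 1, against 53.9%, 25.4%, 40.0% and 0.618% of all 32851 promoters in the table. A gene counted if any of its entries matched, whereas the shares are per promoter. Anpep and Slc6a19 held no match, and their promoters lie inside the gene spans given below, not at the start of those spans. The Xpnpep2 promoter held CAAAG alone, 20 bases before the start, while Mep1a had 3 copies of CAAAG, 2 of GATAA and 1 of TTTAT. These matches describe letters only.

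Among the libraries, SFB 4 and Control 2 stood apart from the others of their groups and touched every comparison. In SFB 4 all 9 genes were below the other SFB libraries, against 24.7% of the 10482 genes tested, and their median difference to the median of those libraries was -1.75 on the log2 scale. In the same library the 8 enterocyte markers had a median difference of -1.39, the 6 villus tip genes -1.61 and the 15 dividing cell genes 1.55, where all genes together had 0.15. In Control 2 the genes differed in direction and size, and 4 of 9 were below the other Control libraries, beside 47.3% of the genes tested. Mep1a differed from the median of the other Control libraries by -2.70, Xpnpep2 by -1.41, Enpep by -0.59 and Slc7a9 by -0.34. Anpep (-0.02), Dpp4 (0.01) and Mep1b (0.04) differed little, and Slc15a1 (0.30) and Slc6a19 (0.47) were higher. Distal small intestine genes had a median difference of -1.48 in that library and proximal ones 1.02, while villus tip genes had 2.14, enteroendocrine cell genes 2.30 and dividing cell genes -1.24. SFB 2 was the highest SFB library for most of the genes, 0.34 to 0.80 above the median of the other SFB libraries, with the Paneth cell list at -4.42. The part of cell composition or gut position in the members' values was not tested, and in these bulk samples fewer cells of a type and less RNA per cell cannot be told apart. Of the markers of cells sorted against, 1 of 10 leukocyte genes had a row, Ptprc for CD45, at 1.40 to 2.48 RPKM in NFF, 0.247 to 1.35 in SFB and 0.751 to 2.25 in Control, beside 489 to 670.4 RPKM of Epcam over the 11 libraries. None of the 7 endothelial and stromal genes had a row.

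**Figure D1:**
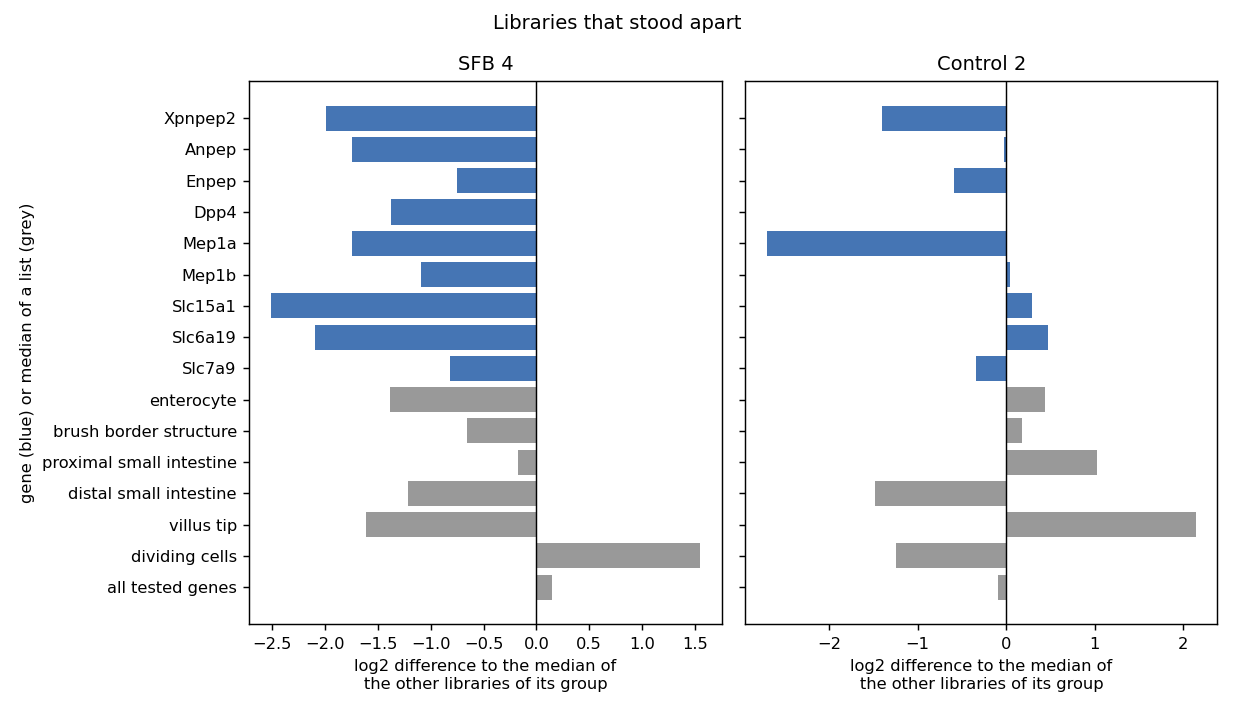
Log2 difference, on the log2(RPKM + 1) scale, of SFB 4 (left) and Control 2 (right) to the median of the other libraries of the same group, for each gene (blue) and as the median over the genes of each list (grey). All 9 blue bars point down in SFB 4, from -0.76 for Enpep to -2.51 for Slc15a1, whereas in Control 2 the longest are those of Mep1a and Xpnpep2.

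The genes were abundant in every library. Levels are in RPKM, reads scaled by gene length and library total, so genes can be compared per length. Averaged over the 11 libraries, Mep1b stood highest at 440.1 RPKM (rank 69 of all genes by mean), followed by Enpep (293), Anpep (225), Slc7a9 (122), Dpp4 (118), Mep1a (106), Xpnpep2 (80.3), Slc6a19 (61.3) and Slc15a1 (31.8, rank 1429). Mep1b exceeded Enpep in 11 of 11 libraries, Enpep exceeded Anpep in 10, Anpep exceeded Slc7a9 in 11 and Slc6a19 exceeded Slc15a1 in 11. The middle of the order was not settled, since Slc7a9 exceeded Dpp4 in 6 libraries and Dpp4 exceeded Mep1a in 5. The lowest single value, 6.32 RPKM for Slc15a1 in SFB 4, was well above the filter of 1 RPKM, so all 9 genes were tested and none was kept by 1 group alone. Mep1a varied most, 10.9-fold between its highest and lowest library, and Enpep least, 2.15-fold. Together the 9 genes held 0.501% to 0.710% of the summed RPKM in NFF, 0.306% to 0.877% in SFB and 0.353% to 0.550% in Control.

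The aminopeptidases cover different amino ends. Xpnpep2 (X:48108725-48136981, plus strand, GRCm38) encodes membrane-bound aminopeptidase P, which removes a residue that precedes proline. It stood at 141, 119.8, 121 and 99.0 RPKM in NFF 1 to 4, at 77.0, 98.8, 56.1 and 18.5 in SFB 1 to 4, and at 23.2, 50.3 and 78.9 in Control 2, 4 and 5. All NFF libraries lay above all Control libraries. They also lay above all SFB libraries, though narrowly, with 98.951 RPKM in NFF 4 and 98.753 in SFB 2. Anpep (7:79821803-79861059, minus strand) encodes aminopeptidase N, which acts mainly on neutral residues, and stood at 299, 218, 250.1 and 203 RPKM in NFF, at 272, 314, 247 and 80.4 in SFB, and at 193, 179.7 and 214 in Control. Enpep (3:129269175-129332720, minus strand) encodes aminopeptidase A, which removes acidic residues, and stood at 364, 310.1, 358 and 245 RPKM in NFF, at 327, 398, 285 and 193 in SFB, and at 185, 261 and 295 in Control. For both genes the 3 groups overlapped, and the highest library was SFB 2.

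Dpp4 and the meprins act on other bonds. Dpp4 (2:62330073-62412231, minus strand) encodes dipeptidyl peptidase 4, which releases dipeptides with proline or alanine in the second position. It stood at 152, 115, 137 and 106 RPKM in NFF, at 145, 177, 122 and 55.1 in SFB, and at 95.1, 81.6 and 109 in Control. In NFF 3 libraries and in SFB 3 libraries lay above all Control libraries. Mep1a (17:43474324-43502812, minus strand) and Mep1b (18:21061923-21100199, plus strand) encode the alpha and beta subunits of meprin, a metalloendopeptidase. Mep1a stood at 171, 162, 160.0 and 123 RPKM in NFF, at 89.9, 115, 78.9 and 26.1 in SFB, and at 15.7, 87.8 and 132 in Control. Mep1b stood at 509, 431, 485 and 382 RPKM in NFF, at 535, 699.9, 465 and 249.9 in SFB, and at 366, 314 and 403 in Control. The subunits thus differed in pattern, with Mep1a highest in NFF 1 and Mep1b highest in SFB 2. For Mep1a all NFF libraries lay above all SFB libraries, but Control 5 (132 RPKM) lay above NFF 4 (123 RPKM).

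The transporters carry the products inward. Slc15a1 (14:121459621-121505252, minus strand) encodes PepT1, the proton-coupled carrier of di- and tripeptides, and stood at 37.7, 30.6, 31.6 and 40.1 RPKM in NFF, at 43.96, 40.8, 27.2 and 6.32 in SFB, and at 34.6, 23.2 and 33.8 in Control. Slc6a19 (13:73679745-73704865, minus strand) encodes the sodium-coupled carrier of neutral amino acids and stood at 69.6, 49.7, 68.2 and 70.5 RPKM in NFF, at 82.9, 92.4, 61.2 and 18.6 in SFB, and at 65.0, 35.6 and 61.05 in Control. Slc7a9 (7:35448796-35466036, plus strand) encodes the light chain of the exchanger for cystine and dibasic amino acids and stood at 128, 109, 129 and 117 RPKM in NFF, at 140.3, 189.6, 129 and 78.9 in SFB, and at 91.0, 115 and 116 in Control. In each of the 3 the groups overlapped and SFB held both the highest and the lowest library. Of the 9 genes, 5 overlap another annotated gene (a pseudogene, an antisense transcript or a locus of undetermined coding status) without a row of its own. Overlap was taken over whole gene spans, and whether exons are shared was not examined. Without strand, reads of any shared exon could not be told apart.

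**Figure D2:**
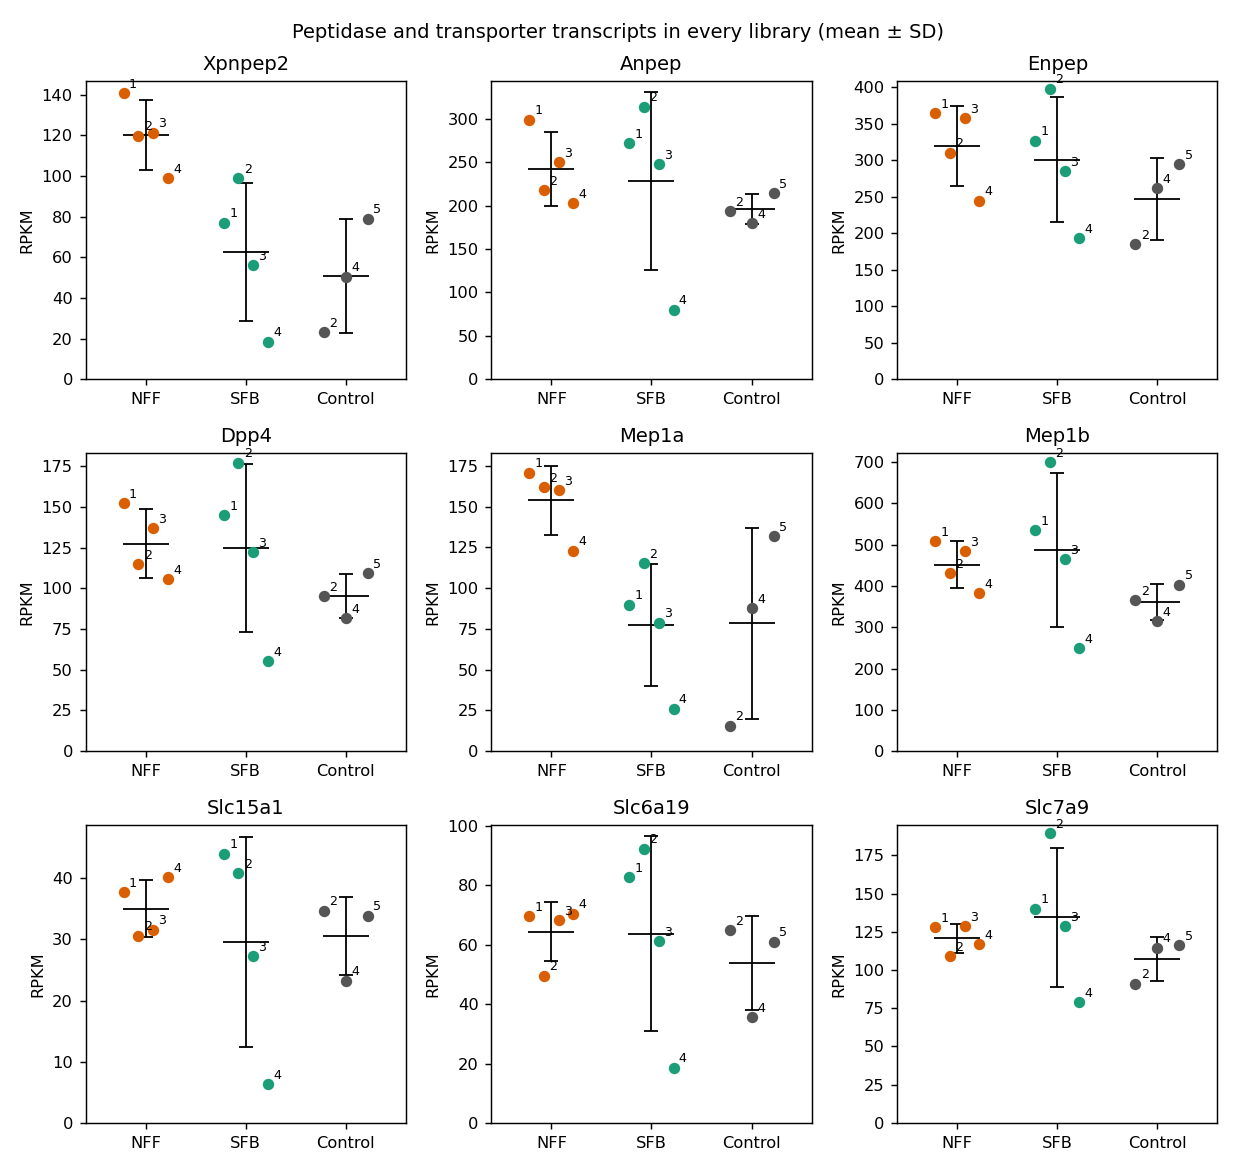
RPKM (y axis, from 0) of each gene in each library of NFF, SFB and Control. Points carry the library's number, the long tick is the group mean and the bars are 1 SD. NFF libraries lie above the rest for Xpnpep2 and, but for Control 5, for Mep1a, and SFB 4 is the lowest SFB point in all 9 panels.

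NFF was set against Control to see which transcripts differ on a diet low in fermentable fiber. No peptidase or transporter gene passed the test. Limma on log2(RPKM + 1), with Benjamini-Hochberg adjustment over 10482 genes, called 0 of the 9 genes and 0 of all genes (0%), with 2 of 9 and 4.82% at an unadjusted p under 0.05. All 9 differences were above 0, against 48.3% of all genes, with a median of 0.32 where all genes had -0.01. Above 0 were also all 8 distal genes (median 1.23) and 6 of 8 enterocyte genes (0.25). The same held for 1 of 6 proximal, 2 of 6 villus tip and 0 of 15 dividing cell genes (median -0.74). The part of these lists in the members' values was not tested. Xpnpep2 averaged 120.1 ± 17.0 RPKM in NFF and 50.8 ± 27.9 in Control (SD, n = 4 and 3), which gave 1.38 ± 0.50 on the log2 scale (fold change ± SE, adjusted p = 0.874 by limma). It was 1 of the 9 genes whose groups did not overlap with NFF higher, beside 5.35% of all genes, and 0 of 9 were lower without overlap, beside 4.42%. Mep1a averaged 154 ± 21.1 RPKM in NFF and 78.5 ± 58.7 in Control, a log2 fold change of 1.40 ± 0.63 (limma adjusted p = 0.896). Without Control 2 these values were 0.91 for Xpnpep2 and 0.50 for Mep1a, uncalled. The other 7 genes had log2 fold changes of 0.17 (Slc7a9) to 0.41 (Dpp4), and each 95% interval reached from below 0 to at least 0.70, the upper bound for Slc7a9.

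The comparison of SFB with Control bears on colonization in mice on the same chow, and it shares the Control libraries with the one before. No gene of the set passed the test here either. Of the 9 genes 0 were called by limma with Benjamini-Hochberg adjustment, where 0.2% of all genes were, and 0 of 9 had an unadjusted p under 0.05 (12.1% of all genes). In 0 of 9 did the groups lie apart, with SFB higher (3.66% of all genes) or lower (6.05%). The log2 fold change was above 0 in 8 of 9 genes and in 52.5% of all genes. Mep1b averaged 487 ± 186 RPKM in SFB and 361 ± 44.7 in Control (SD, n = 4 and 3), a log2 difference of 0.35 ± 0.29 (adjusted p = 0.692 by limma), the furthest above 0 of the 9. Slc15a1 averaged 29.6 ± 17.1 RPKM in SFB and 30.6 ± 6.38 in Control, a log2 fold change of -0.32 ± 0.49 (limma adjusted p = 0.858), the only value below 0. The median of the 9 was 0.25, and 0.01 over all genes. These averages rested on SFB 4, SFB 2 and Control 2. Without SFB 2 the median was -0.00047 with 4 of 9 genes above 0, and without Control 2 it was 0.067 with 6 of 9 above 0. Without SFB 4 the log2 fold changes of all 9 genes were above 0, with a median of 0.57 where all genes had -0.04, and Xpnpep2 (0.72), Mep1a (0.70), Mep1b (0.64) and Dpp4 (0.62) led them, none of them called (limma adjusted p = 0.333, 0.571, 0.163 and 0.144, in that order). The values of Xpnpep2 and Mep1a turned to -0.24 and -0.65 without Control 2, and were 0.059 and -0.35 without Control 2, SFB 2 and SFB 4. Without SFB 4, Anpep, Dpp4, Mep1b and Slc7a9 lay above all Control libraries in each remaining SFB library, 4 of 9 genes beside 7.72% of all genes, and 0 of 9 lay below, beside 12.2%. SFB 4 was the lowest SFB library for all 9 genes but for only 24.7% of all genes. Its removal therefore raises the 9 genes by selection, and neither this share nor the median of 0.57 is a like contrast with all genes.

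The comparison of SFB with NFF mixes diet and colonization and is secondary. It shares the SFB and NFF libraries with the comparisons above. Limma with Benjamini-Hochberg adjustment called 0 of the 9 genes, beside 7.34% of all genes, and 1 of 9 had an unadjusted p under 0.05, beside 25.7%. The difference was above 0 in 2 of 9 genes and in 52.7% of all genes, but 1 library set this count: it was 7 of 9 without SFB 4, with a median of 0.20 in place of -0.22, and 0 of 9 without SFB 2, with a median of -0.45. Xpnpep2 averaged 62.6 ± 34.1 RPKM in SFB and 120.1 ± 17.0 in NFF (SD, n = 4 each), a log2 difference of -1.15 ± 0.46 (adjusted p = 0.149 by limma). Mep1a averaged 77.5 ± 37.5 RPKM in SFB and 154 ± 21.1 in NFF, a log2 fold change of -1.15 ± 0.58 (limma adjusted p = 0.237). These were the 2 genes whose groups did not overlap with SFB lower, beside 9.91% of all genes, and 0 of 9 were higher without overlap, beside 10.1%. Without SFB 4 their values were -0.66 and -0.70, still uncalled. Without Control 2, SFB 2 and SFB 4 together both were called lower in SFB, at -0.85 (limma adjusted p = 0.038 for Xpnpep2 and 0.028 for Mep1a). The share of all genes called in that fit is not reported here. The other 7 genes lay between -0.52 (Slc15a1) and 0.09 (Slc7a9), and 5 of those 7 were below 0. Without SFB 4 all 7 were above 0, from 0.072 (Slc15a1) to 0.32 (Slc7a9), and without SFB 2 all 7 were below 0. Mep1b, the partner subunit of Mep1a, had 0.02 with a 95% interval of -0.57 to 0.62.

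**Figure D3:**
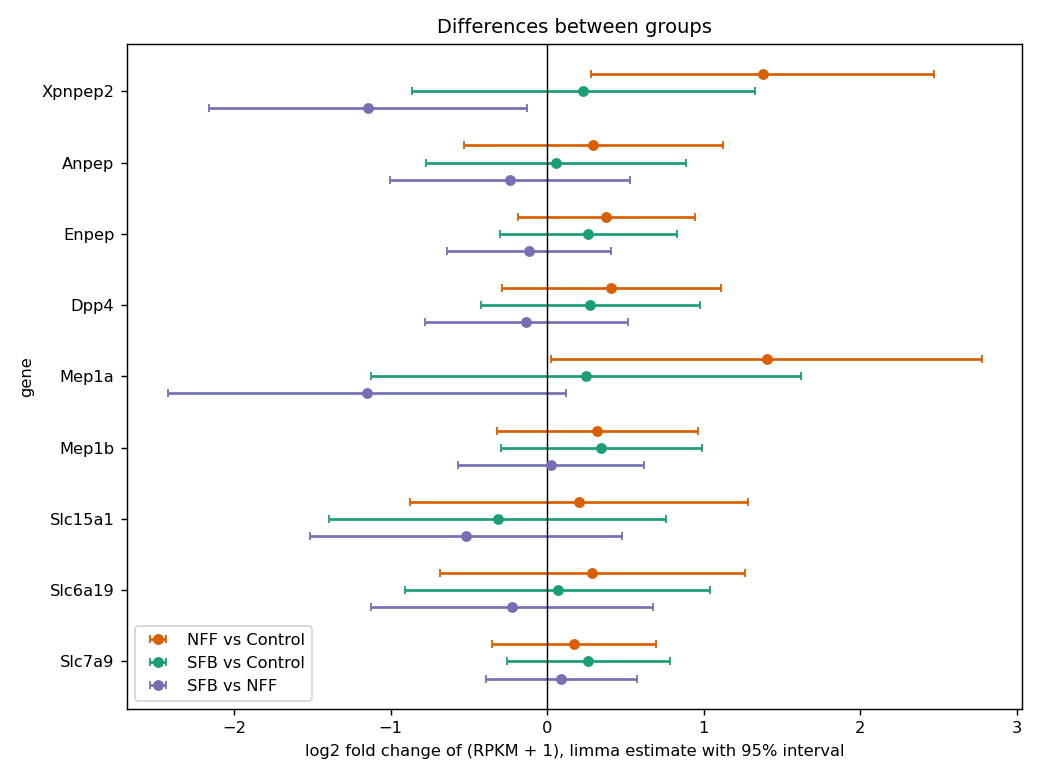
Log2 fold changes of RPKM + 1 (x axis) with 95% intervals from limma for each gene in NFF against Control, SFB against Control and SFB against NFF. Only the intervals of Xpnpep2 in NFF against Control and in SFB against NFF, and of Mep1a in NFF against Control, leave out 0 before adjustment, and no value was called.

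Ratios compare 2 genes within the same library. They were chosen after the values were seen and are given with no test. The ratio of Mep1a to Mep1b was 0.336, 0.376, 0.330 and 0.322 in NFF 1 to 4, 0.168, 0.165, 0.170 and 0.104 in SFB 1 to 4, and 0.0429, 0.279 and 0.327 in Control 2, 4 and 5. Every NFF ratio lay above every SFB ratio, with means of 0.341 ± 0.024 in NFF and 0.152 ± 0.032 in SFB (SD, n = 4 each). Control 4 and Control 5 were nearer to NFF than to SFB, and Control 2 was below all others. The ratio of Xpnpep2 to Anpep also left NFF and SFB apart, at 0.470 to 0.550 in NFF, 0.227 to 0.314 in SFB and 0.120 to 0.369 in Control. SFB 4 lay within the range of its group in the Xpnpep2 to Anpep ratio (0.231) and was the lowest SFB library in the Mep1a to Mep1b ratio. Enpep to Anpep, both genes of aminopeptidases of the same family, stood at 1.21 to 1.43 in NFF, 1.15 to 2.40 in SFB and 0.954 to 1.46 in Control, with overlap throughout. Slc15a1 to Slc6a19 was 0.463 to 0.616 in NFF, 0.340 to 0.531 in SFB and 0.533 to 0.652 in Control.

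**Figure D4:**
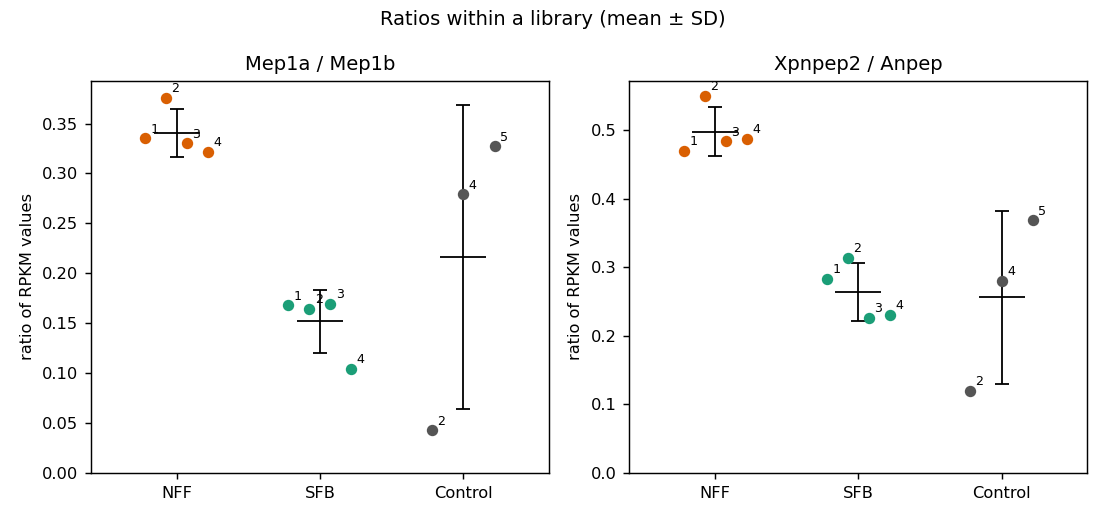
Ratio of RPKM values within each library (y axis, from 0) for Mep1a over Mep1b and Xpnpep2 over Anpep in NFF, SFB and Control. Points carry the library's number, ticks are group means and bars 1 SD. NFF ratios lie above all SFB ratios in both panels, and Control spreads widely with Control 2 lowest.

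Mep1a and Xpnpep2 were low in the same libraries as markers of the distal small intestine, Control 2 and SFB 4. They were not alone in this. Enpep (185 and 193 RPKM) and Slc7a9 (91.0 and 78.9 RPKM) were also lowest in Control 2 and SFB 4, by a smaller margin. The mean log2 level of 8 distal genes, among them the ileal bile acid binding protein gene Fabp6, was 7.13 to 7.23 in NFF, 5.30 to 7.04 in SFB and 4.32 to 6.82 in Control, lowest in Control 2. Fabp6 itself stood at 146 RPKM in Control 2, while Control 4 and Control 5 held 3377 and 3773. Lct, the lactase gene and a proximal marker, stood at 106 RPKM in Control 2, with 14.6 and 35.7 in Control 4 and Control 5. By the likeness of log2 levels over the 11 libraries among 7599 other genes of at least 3 RPKM on average, the gene most like Mep1a was Slc51a, a subunit of the basolateral bile acid exporter (Pearson's r = 0.977), and the gene most like Xpnpep2 was Fgf15, which encodes a hormone of the ileum (r = 0.965). Both belong to the distal list. Anpep was most like the organic cation carrier gene Slc22a4 (r = 0.965), Enpep like the phosphate carrier gene Slc34a2 (0.957), Dpp4 like the pantetheinase gene Vnn1 (0.958), Mep1b like the riboflavin kinase gene Rfk (0.954), Slc15a1 like the fatty acid binding protein gene Fabp2 (0.965) and Slc6a19 like Gm8909 (0.986). The mean of the 9 genes was most like Vnn1 (0.988), Enpp7 (0.952), Aspa (0.952), Rdh9 (0.950) and Slc3a1 (0.949). All these values come from the same 11 libraries, SFB 4 and Control 2 among them. Among the members, Dpp4 and Mep1b were most alike (r = 0.980) and Mep1a and Slc6a19 least (0.439).

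**Figure D5:**
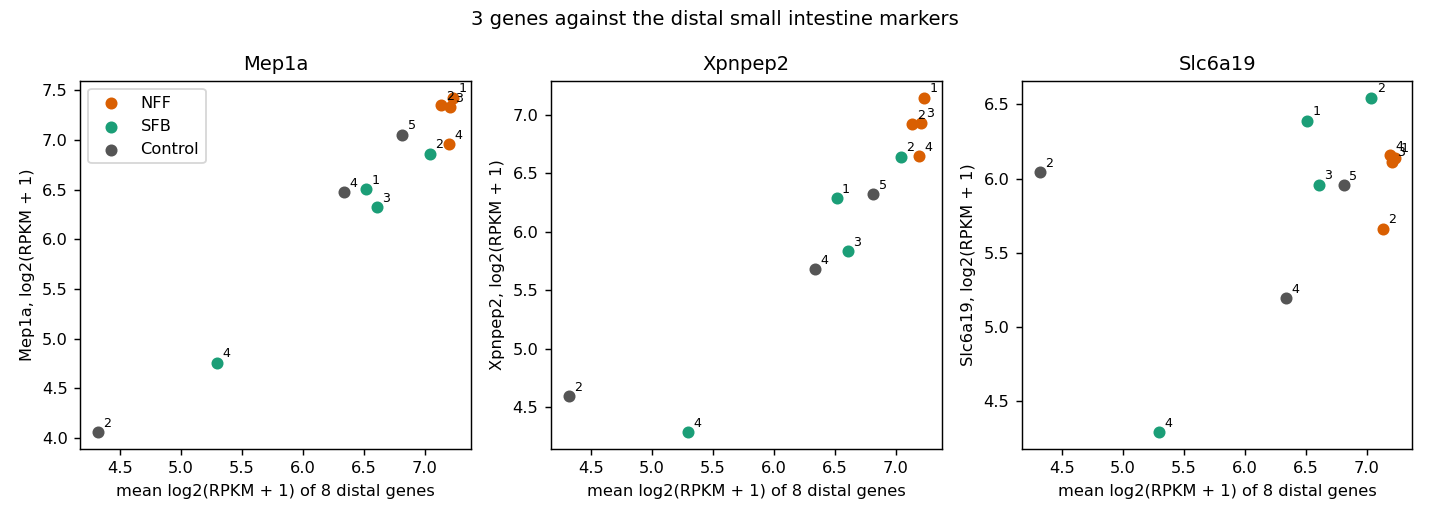
Log2(RPKM + 1) of Mep1a, Xpnpep2 and Slc6a19 (y axes) against the mean log2(RPKM + 1) of 8 distal small intestine genes (x axis), 1 point per library of NFF, SFB and Control with its number. Control 2, the lowest library on the x axis at 4.32, is low for Mep1a (15.7 RPKM) and Xpnpep2 (23.2 RPKM) but not for Slc6a19 (65.0 RPKM), which is lowest in SFB 4.

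The other genes of the pathway were mostly uncalled. Slc3a1, the heavy chain that Slc7a9 needs to reach the membrane, stood at 109, 90.0, 108 and 86.1 RPKM in NFF, at 90.7, 121, 77.0 and 43.1 in SFB, and at 71.2, 61.0 and 102 in Control. Its ratio to Slc7a9 was 0.736 to 0.848 in NFF, 0.547 to 0.646 in SFB and 0.532 to 0.875 in Control. The groups overlapped for Slc3a1, and SFB 4 was lowest. Of the 5 measured partner genes of the transporters, 0 were called in any comparison, and the log2 fold change of the scaffold gene Pdzk1 was 0.77 in NFF against Control and -0.14 in SFB against Control. Of 6 other brush border peptidases, 0 were called, with a median of 0.45 in NFF against Control (Naaladl1 at 0.91 and the dipeptidase gene Dpep1 at 0.62) and -0.13 in SFB against Control (Naaladl1 at 0.42 and Ace, angiotensin-converting enzyme, at -0.46). Of 15 cytosolic peptidases, some of which split the small peptides that Slc15a1 brings in, 0 were called. Their medians were -0.05 in NFF against Control (Cndp2 at 0.64, Pepd at 0.49) and 0.16 in SFB against Control (Xpnpep1 at 0.41, Npepps at 0.24).

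Among 6 other apical amino acid transporters 1 was called in SFB against NFF, where it was lower, and 0 were called in the other comparisons. It was Slc6a20a, a carrier of proline and other imino acids, at 52.2, 47.5, 40.2 and 29.4 RPKM in SFB and 96.8, 124, 104 and 96.5 in NFF, with no overlap and a log2 difference of -1.32 ± 0.19 (n = 4 each, adjusted p = 0.0029 by limma). Its differences from Control were 0.44 in NFF and -0.88 in SFB, the second with a limma adjusted p of 0.106. Slc6a14, a carrier of neutral and cationic amino acids, stood at 1.12 to 6.21 RPKM in SFB and 0.131 to 1.21 in Control, a log2 fold change of 1.48 (limma adjusted p = 0.189). Slc6a6, a taurine carrier, had 0.15 in NFF against Control. Of 7 tested basolateral transporters 0 were called, among them Slc43a2 (0.52) and Slc7a1 (-0.36) in NFF against Control and Slc7a8 (-0.47) and Slc3a2 (-0.22) in SFB against Control.

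Other brush border genes gave the members their setting. Of 14 genes of microvillus structure 0 were called, with medians of 0.22 in NFF against Control (Myo1a at 0.38, Myo7b at 0.47) and 0.07 in SFB against Control (Myo1d at 0.28, Eps8 at 0.30). Of 9 enterocyte transcription factors 0 were called, with medians of -0.02 in NFF against Control (Gata4 at -0.63, Hnf4g at -0.25) and -0.20 in SFB against Control (Gata6 at -0.35, Cdx2 at -0.26). All 4 sugar hydrolases of the same membrane were below 0 in SFB against NFF, and 2 of them were called. Mgam, maltase-glucoamylase, had a log2 fold change of -0.88 ± 0.21 (SE, adjusted p = 0.028 by limma) and Sis, sucrase-isomaltase, -1.27 ± 0.31 (limma adjusted p = 0.031). In NFF against Control they stood at 0.90 and 0.88 and in SFB against Control Lct stood at -1.59 and Treh at -0.86, all uncalled. Markers of other cells moved beside these values. In SFB against NFF, where 7.34% of all genes were called, all 7 tuft cell markers were called lower (median -2.21). So were 2 of 6 enteroendocrine, 1 of 7 Paneth cell, 1 of 8 distal, 1 of 6 proximal and 1 of 6 villus tip genes. Of 15 dividing cell genes 2 were called higher, and 0 of 7 goblet cell and 0 of 8 enterocyte genes were called. Called or not, all 15 dividing cell genes were above 0 (median 1.45). All 6 enteroendocrine (-1.27), 7 Paneth cell (-1.80) and 7 goblet cell genes (-0.72) were below 0. Below 0 were also 7 of 8 distal, 5 of 6 villus tip and 6 of 8 enterocyte genes, but only 2 of 6 proximal ones. The summed RPKM of the 7 tuft cell genes was 76.4 to 135 in NFF, 7.45 to 35.1 in SFB and 48.3 to 94.0 in Control. That of the 15 dividing cell genes was 40.1 to 63.6 in NFF, 81.6 to 335 in SFB and 51.5 to 168 in Control, and that of the 6 villus tip genes 253 to 419 in NFF, 46.1 to 275 in SFB and 110.1 to 2538 in Control. No gene of these 3 lists was at 0 in any library, and their part in the results was not tested.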

How the data were processed

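Per the labels' protocols, RNA of the sorted cells was turned into cDNA with the SMART-seq v4 kit and into libraries with NexteraXT, which mark neither molecules nor strand. Reads were aligned with STAR to mm10, per the submitters' processing notes. The authors deposited 1 table of RPKM values. Sources used here do not give the counting tool, annotation, gene lengths or detection rule. Depth is unknown, so no counting interval is given; RPKM sums were 237248 to 302661 per library.

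Genes with at least 1 RPKM in at least 3 libraries were kept (10482 of 11366) and log2(RPKM + 1) was fitted in R 4.3.3 with limma 3.58.1, with 1 mean per group over all 11 libraries (8 residual degrees of freedom), eBayes with a mean trend and Benjamini-Hochberg adjustment over all genes tested. Genes with an adjusted p under 0.05 were called. Fold changes on this scale understate those of low genes. The code was tested on simulated data.

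Members and gene lists were chosen with earlier results of these data known. From each pathway list the rule named called genes, or otherwise the 2 of lowest p in each comparison with Control; likeness was Pearson's r of log2 levels. Protein sequences were not used here. Some results that the rule would name are not reported here. Gene positions came from GENCODE M21 (GRCm38, the assembly of mm10) and promoters from RefSeq. 15 symbols that read as calendar dates were replaced through their Entrez identifiers. Alternatives covered pseudocounts, filters, scaling, eBayes settings, array weights, a replicate block, fits without the third group, and leaving out libraries.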

Additional observations from a re-analysis of the deposited data

Results flagged for a closer look

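Each gene was examined in the NFF and SFB groups, 18 groups of 4 values on the log2(RPKM + 1) scale, for a library far from the other 3. Slc6a19 in NFF 2 was the only one: its gap to the nearest NFF library was 0.907 of the group's range, above Dixon's critical value for 4 samples, at 49.7 RPKM against 68.2 to 70.5 RPKM in the other NFF libraries. Chance gives about 1 such flag in 20 groups. SFB 4, lowest of its group for all 9 genes, did not pass this criterion for any of them.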

How the results depend on the processing

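All 9 log2 fold changes of NFF against Control stayed above 0 in all 24 alternatives and none was called. Many of these alternatives could not change a fold change, only its p-value. They are the filters, the eBayes settings, fits without the third group and leaving out a library of the third group. Xpnpep2 ranged from 0.91 to 1.77 and Mep1a from 0.50 to 2.00 when 1 library was left out. Of 648 values of the 9 genes under alternatives, 600 kept direction and call, 40 turned in direction and 8 became called. The 600 include the values whose direction was fixed in this way. All 8 came from array weights, from gene-by-gene array weights (added after seeing the data, because the first estimate did not converge and gave SFB 1 a weight of 22.1) or from leaving out Control 2, SFB 2 and SFB 4. Those 3 settings each called 2 of the 9 genes in SFB against NFF (Xpnpep2 and Mep1a, lower). Array weights called 2 in SFB against Control (Dpp4 and Mep1b, higher), where 1948 of 10482 genes were called. In SFB against NFF both weightings also called far more of all genes than the main fit, as given below. The count over all genes without the 3 libraries is not reported here for that comparison. The calls under the weightings are thus not particular to the 9 genes. For the calls without the 3 libraries this cannot be said either way.

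Counts over all genes moved more. For NFF against Control (0) they were 40 with array weights, 4 gene by gene, 1 with only the groups compared, 22 without the 3 libraries and 0 to 8 without 1 library. For SFB against Control (21) they were 11 with median ratio scaling, 1948 with array weights, 333 gene by gene, 1 with only the groups compared, 95 without the 3 libraries and 7 to 94 without 1 library. For SFB against NFF (769) they were 1173 after quantile normalization, 4720 with array weights, 3017 gene by gene and 240 to 994 without 1 library. Of 8 same-numbered pairs of libraries, SFB 4 with Control 4 (r = 0.668) and SFB 2 with Control 2 (0.201) deviated together. The other 6, all with an NFF library, did not (r from -0.301 to 0.028). The pairs of SFB with Control also exceeded the highest r with another number (-0.036 for SFB 4, 0.127 for SFB 2). They were the only such pairs, so whether SFB and Control are paired by number cannot be told. The main fit took the libraries to share only a number. With the replicate number as a block 0 genes were called in SFB against Control and 335 in SFB against NFF, and Anpep (-0.15) and Slc6a19 (-0.065) turned below 0 in SFB against Control.

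In SFB against Control, with array weights, gene-by-gene weights and without the 3 libraries, Mep1a was -0.19, -0.066 and -0.35 and Slc15a1 0.41, 0.35 and 0.30. In SFB against NFF under the same 3, Anpep was 0.12, 0.093 and 0.11, Dpp4 0.13, 0.11 and 0.078, and Slc6a19 0.37, 0.31 and 0.16, and Slc15a1 was 0.35 and 0.25 under the first 2. Without 1 library, SFB against Control ranged from -0.24 to 0.72 for Xpnpep2, -0.15 to 0.50 for Anpep, -0.65 to 0.85 for Mep1a, -0.60 to 0.27 for Slc15a1 and -0.20 to 0.57 for Slc6a19. SFB against NFF ranged from -0.45 to 0.20 for Anpep, -0.27 to 0.080 for Enpep, -0.34 to 0.21 for Dpp4, -0.18 to 0.31 for Mep1b, -0.80 to 0.072 for Slc15a1, -0.47 to 0.28 for Slc6a19 and -0.10 to 0.32 for Slc7a9. The cause of these changes was not tested. What depth limits cannot be given, since it is unknown.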
